A study of Mus musculus with 4 samples.

Results

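The HOXB cluster is 1 of the 4 mouse Hox clusters, whose homeobox genes set positional identity along the body axis. Its 10 members, Hoxb1 to Hoxb9 and Hoxb13, were taken by symbol from a GRCm38 annotation, and all 10 were among the 55401 genes listed for each library. All RNA came from EB3 or its derivatives, mouse embryonic stem cells kept on gelatin with the cytokine LIF. The 2 fusion libraries (replicates 1 and 2) were made from EB3 derivatives expressing NUP98-HOXA9, a leukaemia fusion of a nucleoporin and a Hox protein. They were set against 2 wild-type libraries, 1 of the parental EB3 line and 1 of EB3-derived cells with an empty vector. The labels do not name the vector's promoter, and do not state if the fusion libraries represent different clones or cultures of 1 clone. The p-values therefore measure only the spread between these samples, and on the wild-type side that spread lies between 2 kinds of control.

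Hox genes of a cluster lie side by side and are transcribed in the same direction. In the embryo they are switched on in their order along the chromosome, Hoxb1 first and the genes of the other end later and further towards the tail. In undifferentiated embryonic stem cells Polycomb repression keeps them nearly silent, and retinoic acid, Wnt and caudal-type factors are known inducers. The proteins bind DNA through a homeodomain, most of them with PBX and MEIS partners.

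On chromosome 11 the annotated cluster runs from 96194316 (Hoxb13) to 96368256 (the end of Hoxb1), 173.9 kb in all, with every Hoxb gene on the plus strand. Hoxb9 to Hoxb1 fill 96.8 kb, and Hoxb13 lies 74.0 kb upstream of Hoxb9. RefSeq promoter windows (GRCm38.p6) were at hand for 3 of the 10 members, and the 250 bases before the start site are printed because these genes behaved differently between the fusion libraries. Hoxb8 had the largest ratio between replicates 1 and 2, Hoxb4 an intermediate one, and Hoxb1 was higher in replicate 2. Capitals mark matches, on either strand, to the 5 motifs searched.
Hoxb8, chr11:96281655-96281904, plus strand: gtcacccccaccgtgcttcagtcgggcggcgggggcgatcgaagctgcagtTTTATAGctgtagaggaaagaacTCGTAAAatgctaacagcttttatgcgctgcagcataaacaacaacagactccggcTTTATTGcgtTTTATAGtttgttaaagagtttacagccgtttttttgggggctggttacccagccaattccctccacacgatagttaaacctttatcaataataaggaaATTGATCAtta
Hoxb4, chr11:96318017-96318266, plus strand: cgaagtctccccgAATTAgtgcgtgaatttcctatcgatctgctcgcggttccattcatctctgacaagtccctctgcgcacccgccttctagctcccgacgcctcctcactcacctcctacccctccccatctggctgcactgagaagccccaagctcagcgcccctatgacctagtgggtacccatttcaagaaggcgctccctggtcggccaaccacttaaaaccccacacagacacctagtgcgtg
Hoxb1, chr11:96365508-96365757, plus strand: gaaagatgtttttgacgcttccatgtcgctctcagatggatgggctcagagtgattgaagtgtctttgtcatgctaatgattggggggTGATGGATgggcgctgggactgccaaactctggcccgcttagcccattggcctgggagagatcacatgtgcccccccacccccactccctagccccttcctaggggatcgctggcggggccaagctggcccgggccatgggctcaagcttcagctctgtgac
The motifs were TTTATNG and TTTACGA, cores bound by posterior Hox proteins (the first also by caudal-type factors), TGATNNAT, a composite of PBX and Hox sites, TGACAG, the MEIS core, and AATTA, a general homeodomain core. They were chosen with the windows in view. The Hoxb8 window held 3 matches to TTTATNG, 1 to TTTACGA and 1 to TGATNNAT. The Hoxb1 window held 1 match to TGATNNAT, within the run TGATGGAT, and the Hoxb4 window 1 match to AATTA. None of the 3 windows matched TGACAG, and no match overlapped another. Of all 32851 windows of this length, 9.81% held TTTATNG, 0.478% TTTACGA, 7.68% TGATNNAT, 15.9% TGACAG and 25% AATTA. A match describes the letters and shows no binding.

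The libraries held 19021386 to 21151729 estimated counts. Hoxa9 stood at 190 and 127 CPM (counts scaled to library size with TMM factors) in fusion replicates 1 and 2 and had 0 counts in both wild-type libraries. Nup98 lay at 310 and 296 CPM in the fusion libraries and at 216 and 218 CPM in parental and empty-vector cells. These counts do not split construct reads from endogenous ones. Pluripotency markers were at a summed 4610 and 4100 CPM in fusion cells and 3560 and 4300 CPM in parental and empty-vector cells. Of these markers, 0 of 8 passed the test in either direction. Klf4 and Nanog had log2 fold changes of 1.40 and 1.11 without passing (adjusted p = 0.0651 and 0.0867, edgeR). The other pluripotency markers ran from -0.34 for Sox2 to 0.21 for Tdgf1. Endoderm markers moved with the fusion, with 7 of 7 tested of 8 higher, beside 2.83% of all genes, at a summed 127 and 161 CPM in fusion cells against 13.4 and 8.75 CPM in parental and empty-vector cells. Only 3 of the 7 reached a wild-type mean of 1 CPM, and Afp, the untested one, was under 0.5 CPM in every library. The summed endoderm markers were higher in fusion replicate 2, while summed HOXB was higher in replicate 1. Single endoderm markers were split. Dab2, Pdgfra and Gata6 had ratios of replicate 1 to replicate 2 of 0.551, 0.549 and 0.793. Sox7 and Foxa2 had ratios of 1.66 and 1.82, and Gata4 and Sox17 were nearly level at 1.06 and 1.03. The part of cells with endoderm markers in the HOXB levels was not tested. In RNA from whole cultures, few cells with much Hox RNA and many cells with little cannot be told apart. Summed mesoderm markers were at 37.2 and 17.0 CPM in fusion cells and 23.5 and 13.3 CPM in parental and empty-vector cells. Eomes made up most of that sum in fusion cells, at 34.1 and 12.7 CPM. The tested mesoderm markers were split, with log2 fold changes of 1.26 for Eomes, 0.6 for Tbx6, -1.18 for Mixl1 and -1.96 for T, and none passed. Summed neural markers were at 119 and 130 CPM in fusion cells and 155 and 140 CPM in parental and empty-vector cells. Tubb3 made up most of the neural sum, and 1 of 4 tested neural markers rose, Sox1, at 6.17 and 4.06 CPM in fusion cells against 0.99 and 1.06 CPM in parental and empty-vector cells (adjusted p = 0.0468, edgeR). Pax6 and Nes went the other way without passing, with log2 fold changes of -2.08 and -1.33 (adjusted p = 0.16 and 0.129, edgeR). The median log2 fold change of the 4 tested neural markers was -0.66. Fibroblast markers summed to 40.3 and 49.7 CPM in fusion cells and 37.4 and 24.5 CPM in parental and empty-vector cells, and blood markers to 4.61 and 8.25 CPM in fusion cells and 4.22 and 5.83 CPM in parental and empty-vector cells.

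HOXB RNA was near zero in wild-type cells and present in both fusion libraries. The 10 genes summed to 78.3 and 23.7 CPM in fusion replicates 1 and 2, against 1.46 CPM in parental and 1.86 CPM in empty-vector cells. By edgeR's quasi-likelihood test, with p-values adjusted over 16511 genes, 7 genes rose. These were Hoxb1 to Hoxb5, Hoxb8 and Hoxb9, with adjusted p from 0.0151 to 0.0424 (edgeR). On simulated counts the share of false calls from this fit was above 0.05. Hoxb6, Hoxb7 and Hoxb13 did not pass the threshold of 0.05, and none fell (0 lower at an unadjusted p of 0.05, and 0 by DESeq2). Of all genes tested, 2.83% were called higher. Both fusion libraries lay above both wild-type libraries for all 10 members and for 27.1% of all genes tested. Of the members, 9 were under 1 CPM in both wild-type libraries and met the count filter only by their fusion counts, so they had little room to fall. The median fitted log2 fold change over the 10 tested members, 6.65 beside -0.0034 over all genes tested, shares that limit. The median was 5.45 with every member set to its ratio of group counts scaled to depth, or to a lower bound where both wild-type libraries had 0 counts.

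**Figure D1:**
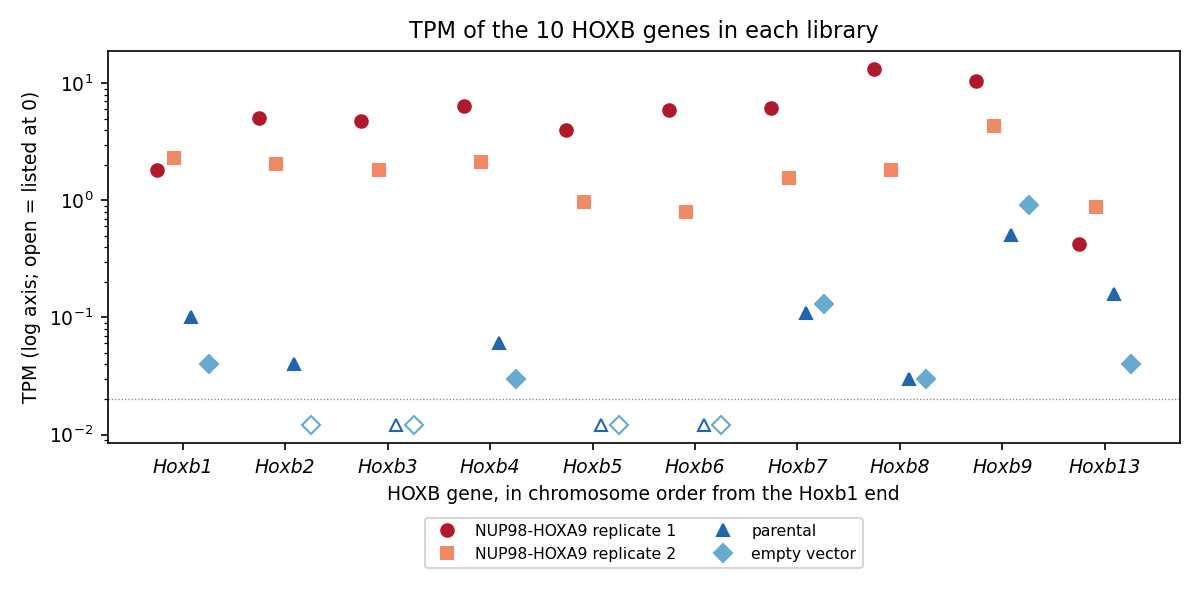
TPM of each HOXB gene (log axis) in the 2 NUP98-HOXA9 libraries, the parental line and the empty-vector library, 1 point per library, with open symbols at the bottom for a gene listed at 0. Fusion points lie above wild-type points for every gene, replicate 1 is the higher fusion library from Hoxb2 to Hoxb9, and replicate 2 for Hoxb1 and Hoxb13.

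Hoxb1, which specifies a segment of the hindbrain and is the first gene of the cluster to respond to retinoic acid, stood at 2.11 and 3.05 CPM in fusion replicates 1 and 2, against 0.0521 and 0.053 CPM in parental and empty-vector cells. The fusion group had 109 counts and the wild-type group 2, and their depth-scaled ratio was 49.5 (95% exact binomial interval 13.4 to 414, adjusted p = 0.0151, edgeR). It was the HOXB gene with the lowest adjusted p and the closest agreement in level between the fusion libraries. All intervals and floors given here reflect counting error alone.

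Hoxb2 and Hoxb3, both hindbrain genes, and Hoxb4, which is known to expand blood stem cells when overexpressed, were each higher in replicate 1. Hoxb2 lay at 5.56 and 2.28 CPM in the fusion libraries and at 0.0521 and 0 CPM in parental and empty-vector cells, a ratio of 146 from 161 counts against 1 (interval 25.9 to 5810, adjusted p = 0.0215, edgeR). Hoxb3 lay at 8.87 and 2.19 CPM in the fusion libraries with 0 counts in both wild-type libraries. With 3 counts over the wild-type group taken as the floor, it was at least 68.1-fold higher (adjusted p = 0.0325, edgeR). Hoxb4 lay at 10.8 and 3.47 CPM in the fusion libraries against 0.104 and 0.053 CPM in parental and empty-vector cells, a ratio of 88.4 from 292 counts against 3 (interval 30.0 to 431, adjusted p = 0.0184, edgeR). For all 3 genes the lower fusion library was still far above both wild-type libraries.

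In the middle of the cluster the fusion libraries lay further apart. Hoxb5, which acts in enteric nerve and lung development, had 101 counts in replicate 1 and 26 in replicate 2 (5.06 and 1.19 CPM) and 0 in both wild-type libraries, at least 38.5-fold higher (adjusted p = 0.0424, edgeR). Hoxb6, a gene of lateral mesoderm, had 107 and 17 counts in the fusion libraries (5.36 and 0.775 CPM) and 0 in both wild-type libraries. It was at least 37.6-fold higher over the group, but the adjusted p was 0.0607. Hoxb7 lay at 4.66 and 0.912 CPM in the fusion libraries against 0.104 and 0.106 CPM in parental and empty-vector cells, with a log2 fold change of 4.64 (SE 1.00, adjusted p = 0.0561, edgeR). By DESeq2 Hoxb6 and Hoxb7 passed (adjusted p = 0.000195 and 0.0027). Of 12 alternatives, Hoxb6 passed in 2 and Hoxb7 in 3. Their log2 fold changes were 9.7 and 5.39 without fusion replicate 2, and 6.96 and 3.04 without fusion replicate 1.

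Hoxb8, which can hold myeloid progenitors in an immature state when overexpressed, was the most uneven member. It stood at 19 and 2.05 CPM in fusion replicates 1 and 2, against 0.0521 and 0.053 CPM in parental and empty-vector cells. The group ratio was 193 from 424 counts against 2 (interval 53.0 to 1600, adjusted p = 0.0393, edgeR). The call was lost when either control was left out (adjusted p = 0.547 when parental cells and 0.496 when empty-vector cells were left out), without fusion replicate 1 (adjusted p = 0.0784), with no count filter (adjusted p = 0.313) and by limma on TPM (adjusted p = 0.0804).

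Hoxb9, a gene of the thoracic skeleton, was the only member with a wild-type mean above 1 CPM. It lay at 16.3 and 6.52 CPM in fusion replicates 1 and 2, against 0.833 and 1.54 CPM in parental and empty-vector cells, from 16 and 29 wild-type counts. Its log2 fold change was 3.26 (SE 0.58, adjusted p = 0.0369, edgeR), smaller than that of any other member that passed. Hoxb13, a gene of the tail end and the prostate, set apart from the rest by 74.0 kb, stayed low, at 0.602 and 1.23 CPM in fusion replicates 1 and 2 and 0.26 and 0.053 CPM in parental and empty-vector cells. It missed the threshold with a log2 fold change of 2.50 (SE 0.81, adjusted p = 0.146, edgeR), and the closest pair, fusion replicate 1 and parental, had 12 and 5 counts.

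The calls depended on the libraries. Set against the parental line alone in a fit with 3 groups, 0 HOXB genes passed, with adjusted p from 0.0725 to 0.374, and against the empty vector alone 0 passed, with adjusted p from 0.0728 to 0.282 (edgeR). Of all genes, 0.509% were called higher against parental cells and 0.388% against empty-vector cells. At an unadjusted p of 0.05, 9 of 10 HOXB genes were higher against parental cells, beside 10.5% of all genes, and 10 of 10 against empty-vector cells, beside 9.91% of all genes. Hoxb9 had a log2 fold change of 3.76 (SE 0.81) against parental and 2.88 (SE 0.75) against empty-vector cells, and Hoxb1 5.47 (SE 1.05) and 5.45 (SE 1.05). Without fusion replicate 1 only Hoxb1 and Hoxb4 passed. Without the parental library Hoxb1, Hoxb2 and Hoxb4 passed, and without the empty-vector library these 3 and Hoxb9. Without fusion replicate 2, 9 genes passed, all but Hoxb13. Hoxb1 and Hoxb4 passed in 11 of 13 alternatives, failing only against each control alone.

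**Figure D2:**
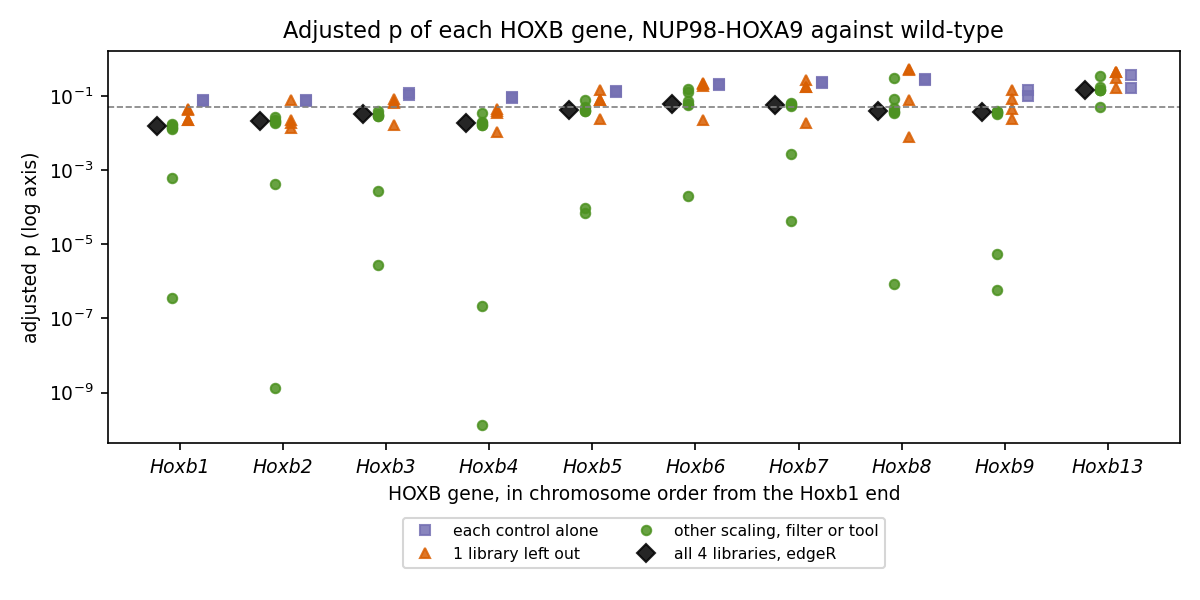
Adjusted p (log axis) of each HOXB gene for NUP98-HOXA9 against wild-type cells, with the threshold of 0.05 as a dashed line; each point is 1 setting, grouped by kind. With each control alone every gene lies above the line, with 1 library left out 8 of 10 genes have a point above it, and Hoxb13 lies above it in every setting, its lowest value being 0.0506.

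The ratio between the fusion libraries varied along the cluster. Of the 10 genes, 8 were at least 2-fold higher in replicate 1, as were 2.78% of 16382 genes at 0.5 CPM or more and 12.4% of the 468 genes called higher in fusion cells. By this rule, which adds 0.1 CPM to each value, 0 members were at least 2-fold higher in replicate 2, beside 7.28% of the 16382 genes and 8.97% of the 468. With 1 library on each side there is no test. The ratio of replicate 1 to replicate 2 was 0.689 for Hoxb1 (95% exact binomial interval 0.457 to 1.03), 2.44 for Hoxb2 (1.73 to 3.48), 4.05 for Hoxb3 (2.93 to 5.70) and 3.12 for Hoxb4 (2.40 to 4.11). Further along it was 4.27 for Hoxb5 (2.75 to 6.85), 6.92 for Hoxb6 (4.13 to 12.3), 5.11 for Hoxb7 (3.13 to 8.75) and 9.26 for Hoxb8 (6.79 to 12.9). It was 2.50 for Hoxb9 (2.05 to 3.06) and 0.489 for Hoxb13 (0.225 to 0.997). The 2 end genes were thus the ones higher in replicate 2, Hoxb1 with an interval that spans 1 and Hoxb13 with one that ends just below it, and the ratio was highest for Hoxb8. Summed over Hoxb6, Hoxb7 and Hoxb8 the ratio was 7.76 (6.15 to 9.91), against 3.33 (2.83 to 3.92) over Hoxb2 to Hoxb5. Hoxb8 gave 379 of the 579 replicate 1 counts in the first of these sums, and neither sum holds Hoxb9. A step between these stretches of the cluster was not tested. Over 798 chromosome 11 genes at 10 CPM or more the median log2 ratio of replicate 1 to replicate 2 was 0.05, beside 0.03 on all other chromosomes. Single genes of chromosome 11 outside the cluster also differed, such as Meis1 with a ratio of 3.91 (3.04 to 5.08) and Calcoco2 with 2.08 (1.96 to 2.21).

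**Figure D3:**
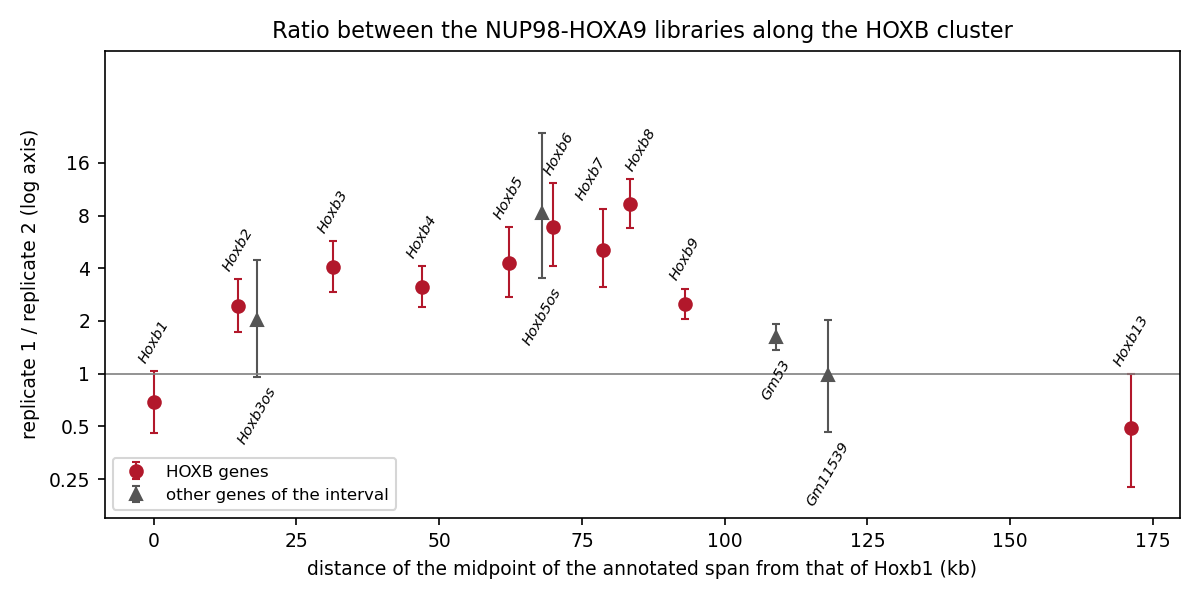
Ratio of CPM in NUP98-HOXA9 replicate 1 to replicate 2 (log axis) against distance from Hoxb1 in kb, for the 10 HOXB genes (circles) and 4 other genes of the interval (triangles); bars are 95% exact binomial intervals of the counts. The ratio lies below 1 at Hoxb1 and Hoxb13 and is highest, at 9.26, at Hoxb8.

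Per length, the libraries also differed in which HOXB gene led. TPM values, which allow genes to be compared, summed to 58.4 in fusion replicate 1, 18.7 in replicate 2, 1.01 in parental and 1.19 in empty-vector cells. In replicate 1 Hoxb8 was highest at 13.36 TPM (22.9% of the HOXB sum), followed by Hoxb9 at 10.53 TPM and by Hoxb4, Hoxb7 and Hoxb6 at 6.41, 6.12 and 5.90 TPM. In replicate 2 Hoxb9 led at 4.36 TPM (23.4%), followed by Hoxb1 at 2.31, Hoxb4 at 2.12 and Hoxb2 at 2.04 TPM, while Hoxb8 stood at 1.81 and Hoxb6 at 0.80 TPM. Hoxb1 made up 3.08% of the HOXB sum in replicate 1 and 12.4% in replicate 2. Neighbours in these orders, such as Hoxb4, Hoxb7 and Hoxb6 in replicate 1, have no replicate spread to separate them. Hoxb9 gave 50.5% of the sum in parental and 77.3% in empty-vector cells, where all 10 genes together had 28 and 35 counts.

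**Figure D4:**
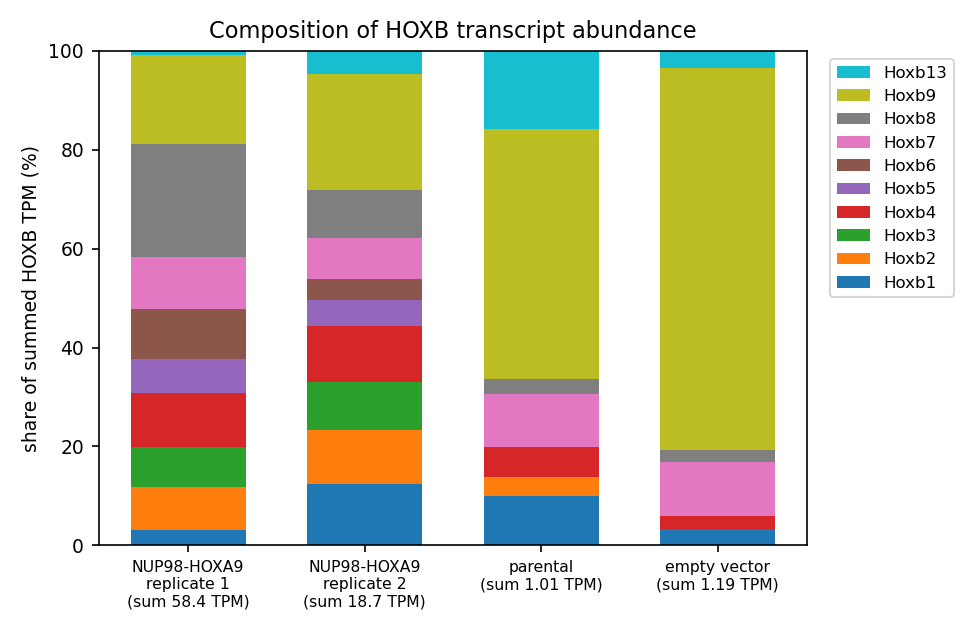
Share of the summed HOXB TPM (percent) taken by each gene in each library, with the sum under each bar. Hoxb8 takes 22.9% in NUP98-HOXA9 replicate 1 and 9.70% in replicate 2, and Hoxb9 takes 50.5% and 77.3% of the small sums of the parental and empty-vector libraries.

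The tables also give a transcript length per gene, weighted by the estimated use of its isoforms. For Hoxb3 this was 2821 bases in fusion replicate 1 and 1906 bases in replicate 2. The annotation lists Hoxb3 protein-coding isoforms of 3190, 1890 and 664 bases. The value of replicate 1 lies nearer the longest isoform and that of replicate 2 at the middle one, from 177 and 48 counts. For Hoxb8, with listed isoforms of 2635, 1141 and 664 bases, the weighted length was 2172 and 1800 bases in replicates 1 and 2. Hoxb9 hardly differed, at 2358 and 2353 bases. Hoxb4 and Hoxb13 have 1 listed isoform each. These are estimates from gene tables without an error, and because they enter TPM, the ratio of replicate 1 to replicate 2 for Hoxb3 was 2.62 in TPM and 4.05 in CPM.

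Between the ends of Hoxb13 and Hoxb1 the annotation holds 9 other genes, of which 4 had at least 10 counts. Hoxb5os, an antisense transcript across Hoxb5 and Hoxb6, had 45 counts in fusion replicate 1, 6 in replicate 2 and 0 in both wild-type libraries (at least 15.4-fold higher over the group), and did not pass the count filter. Its ratio of replicate 1 to replicate 2 was 8.24 (interval 3.51 to 23.6), beside 6.92 for Hoxb6. Hoxb3os, antisense to Hoxb2 and part of Hoxb3, had 22 and 12 counts in the fusion libraries against 0 and 1 in parental and empty-vector cells (adjusted p = 0.0573, edgeR). The kit was stranded per the labels, but whether counting used strand is not given. The annotated spans of Hoxb2, Hoxb3, Hoxb5 and Hoxb6, introns included, overlap those of these partners, and whether they shared reads was not tested.

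Gm53, a long noncoding RNA between Hoxb9 and Hoxb13, was already present in wild-type cells. It lay at 18.3 and 11.4 CPM in fusion replicates 1 and 2, against 4.48 and 9.92 CPM in parental and empty-vector cells. It missed the threshold with a log2 fold change of 1.04 (SE 0.45, adjusted p = 0.257, edgeR), and replicate 2 was close to the empty-vector library. The pseudogene Gm11539 had 0.802 and 0.821 CPM in fusion cells and 0.677 and 0.583 CPM in parental and empty-vector cells (adjusted p = 0.759). The hairpin of Mir10a was listed at 0 in every library and that of Mir196a-1 had 1 to 4 counts, in mRNA libraries, which do not measure mature miRNAs.

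Outside the cluster, the 11 tested flanking genes had a median log2 fold change of -0.24, beside -0.0034 over all genes tested. Of these 11, none fell and 1 rose, beside 0.581% lower and 2.83% higher among all genes tested. This was Calcoco2, an autophagy receptor gene beyond Hoxb13, at 158 and 76.0 CPM in fusion cells against 17.5 and 28.4 CPM in parental and empty-vector cells (log2 2.35, SE 0.40, adjusted p = 0.0319, edgeR). Ttll6, which lies between Calcoco2 and Hoxb13, was at 15.8 and 21.5 CPM in fusion cells against 5.73 and 24.0 CPM in parental and empty-vector cells, where the groups overlap (adjusted p = 0.821). On the Hoxb1 side Snx11 and Cbx1 had log2 fold changes of -0.63 (adjusted p = 0.217) and -0.59 (adjusted p = 0.100), and neither passed.

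Of 16 genes known to regulate HOXB genes in the embryo, 14 were tested, and 6 rose and none fell, with a median log2 fold change of 2.50, beside 2.83% higher and 0.581% lower among all genes tested. Only 8 of the 14 reached a wild-type mean of 1 CPM. Aldh1a2, the enzyme that makes retinoic acid, lay at 378 and 109 CPM in fusion cells against 3.59 and 4.14 CPM in parental and empty-vector cells (adjusted p = 0.00883, edgeR). Its ratio of replicate 1 to replicate 2 was 3.48, beside 3.31 for summed HOXB. Rarb, a retinoic acid receptor, lay at 15.1 and 7.61 CPM in fusion cells against 0.156 and 0.371 CPM in parental and empty-vector cells. Cdx1, a caudal-type factor, lay at 116 and 42.7 CPM in fusion cells against 1.09 and 0.53 CPM in parental and empty-vector cells. Rxra, a partner of retinoic acid receptors, rose too, at 47.8 and 34.7 CPM in fusion cells against 13.3 and 11 CPM in parental and empty-vector cells. Wnt3a, a ligand of the Wnt pathway, lay at 3.26 and 1.6 CPM in fusion cells against 0.156 and 0.212 CPM in parental and empty-vector cells (adjusted p = 0.0366, edgeR). Cyp26a1, which breaks down retinoic acid, and Cdx2 had log2 fold changes of 3.11 and 3.07 without passing (adjusted p = 0.0529 and 0.0709).

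Of 9 tested genes for Hox partner proteins, Pbx3 rose, at 60.2 and 42.8 CPM in fusion cells against 14.4 and 10.9 CPM in parental and empty-vector cells (log2 2.02, SE 0.27, adjusted p = 0.0176, edgeR). Pbx2 narrowly missed the threshold (log2 0.98, adjusted p = 0.0507). Meis1, the partner best known from leukaemia, was at 14.1 and 3.60 CPM in fusion replicates 1 and 2 and 1.15 and 0.849 CPM in parental and empty-vector cells (adjusted p = 0.062). None of the 9 fell, and their median log2 fold change was 0.74, beside -0.0034 over all genes tested. Among all genes tested, 2.83% were called higher and 0.581% lower.

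The summed HOXB profile was compared with 457 genes outside the Hox clusters with an official symbol that passed the test and averaged 1 CPM or more. The distance was the root mean square difference of centred log2(CPM + 0.5) over the 4 libraries. The nearest were Cemip (0.07), Hal (0.24), Ppp1r14d (0.32), Glipr1 (0.33) and Rarb (0.35). Cemip, a hyaluronan-degradation factor, lay at 41.8 and 13.9 CPM in fusion cells against 0.521 and 0.796 CPM in parental and empty-vector cells, with a ratio of replicate 1 to replicate 2 of 3.02. Since 4 libraries make the profile, this likeness is a description only.

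Among the other Hox clusters, which were measured in the same libraries, the ratio of replicate 1 to replicate 2 was 1.57 (interval 1.53 to 1.62) for summed HOXA, 4.19 (3.61 to 4.87) for HOXC and 1.49 (1.1 to 2.03) for HOXD, beside 3.31 (3 to 3.66) for HOXB. Summed HOXA includes Hoxa9, whose counts do not split construct reads from endogenous ones, and without Hoxa9 the HOXA ratio was 1.62 (1.56 to 1.69). Hoxc8, the HOXC counterpart of Hoxb8, had a ratio of 11.4.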

How the data were processed

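The authors deposited 1 gene table for each of the 4 libraries, with expected counts (RSEM's estimates), TPM (abundance scaled by length and depth) and FPKM (not used here), per the file headers. The tables' transcript length and effective length are in bases, per the file headers. The submitters' processing notes name build GRCm38 and the tools RSEM 1.3.3, STAR 2.7.10a and DESeq2 1.36.0. Strand setting, annotation release and any filter are not given in those sources. Of 55401 gene identifiers, 55141 (99.5%) matched GENCODE M21. All 40 HOXB count values were whole.

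Expected counts were rounded and tested in edgeR 4.0.16 (R 4.3.3) by robust quasi-likelihood after TMM scaling and filterByExpr (minimum count 10), fusion against wild-type, adjusted by Benjamini-Hochberg over 16511 genes. The SE is the absolute log2 fold change over the square root of F. Ratios between libraries use counts over TMM-scaled totals with exact 95% binomial intervals. Alternatives were other scalings and filters, a fit that is not robust, DESeq2 1.42.0, limma 3.58.1 on log2(TPM + 1), each control alone and each library left out. On simulated counts with known changes, the share of false calls was above the threshold of 0.05 in each of 3 runs. The members, lists and motifs were chosen with earlier results of these data known. Beside the 10 members, genes named were those past the threshold in a fixed list, interval genes with at least 10 counts and the 5 nearest profiles; others were named after their values were seen. Some genes that this rule names are not reported here.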

Additional observations from a re-analysis of the deposited data

How the results depend on the processing

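No HOXB gene changed direction in any of the alternatives run, 127 values in all, of which 93 kept their side of the threshold, 29 lost the call and 5 gained it. The count of HOXB genes called higher was 7 with all 4 libraries. It was 0 against the parental line alone and 0 against the empty vector alone, and 2 to 9 when 1 library was left out (lowest without fusion replicate 1). The fits against each control alone hold all 4 libraries in 3 groups, and the cause was not tested. DESeq2 called 9 and limma on TPM 5. Over all genes, 468 were higher and 96 lower. The counts were 1315 higher and 631 lower with no filter, 919 and 436 by DESeq2, 84 and 20 against the parental line alone, and 64 and 18 against the empty vector alone; the cause was not tested. Leaving out 1 library gave 152 to 367 higher and 11 to 185 lower. The ratio of summed HOXB between fusion replicates 1 and 2 was 3.31, and 3.13 to 3.35 on other scales. It was 2.75 without Hoxb8 and 3.70 without Hoxb1. Hoxb6, Hoxb7 and Hoxb13 were not tested at a filter of 1 CPM in 2 libraries. No paired analysis was possible because the wild-type libraries carry no replicate numbers. Low gene counts limit the wild-type side most, where 9 of 10 genes rest on 0 to 6 counts over the group.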
